A study of Mus musculus with 12 samples.

Results

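Collagens are proteins of the extracellular matrix, and each is a trimer of chains that come from 1 gene or from several. The chain genes were taken by symbol (Col, a type number, a, a chain number), and 41 such symbols are in the deposited table of 27503 genes. A count above 0 in at least 3 of the 12 libraries was required, which left 36 chain genes. The 5 left out were Col22a1, listed above 0 in 2 libraries, and Col25a1, Col28a1, Col6a4 and Col6a6, listed above 0 in 1 library each.

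The libraries were made from B16F10, a transplantable mouse melanoma line, and measured poly(A) RNA. The 4 groups of 3 libraries were mutant IFNα, mutant control, wild-type IFNα and wild-type control, where mutant stands for the C435A form of IRF7, a transcription factor of interferon genes, and IFNα for stimulation with interferon alpha. The title of the series links nitrosylated IRF7 with NOS1 in melanoma. The labels do not say how the C435A form was introduced, how many clones were used, what dose and time of IFNα applied or whether libraries of a group came from separate cultures. A p-value here therefore covers the spread among the libraries, which may be technical. Totals per library were 60511573 to 75927461 counts. Irf7 itself was listed at 4.63 to 7.23 FPKM in mutant IFNα, 4.44 to 5.19 in mutant control, 8.45 to 9.87 in wild-type IFNα and 11.6 to 12.8 in wild-type control, a level that does not check which form was carried. In the wild type Irf7 was lower in each IFNα library than in each control library. Whether genes known to be induced by interferon rose with IFNα was not checked here.

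A collagen chain is marked by a long repeat in which glycine is followed by a pair of other residues, and this repeat lets the chains wind into a triple helix. Fibrillar chains (types I, II, III, V and XI) assemble into the cross-striated fibrils of skin, bone, vessel walls and cartilage, and type IV chains form the mesh of basement membranes. Fibril-associated chains such as types IX and XVI attach to the surface of fibrils or lie near them. Most interstitial collagen in tissue is made by fibroblasts, while melanoma cells, which derive from the neural crest lineage, can make basement membrane chains.

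The repeat can be read in the transcripts. In the GENCODE M21 coding sequences of all 36 chain genes, the longest run of triplets that open with a glycine codon (GGN, where N is any base) was 23 to 344 triplets long, with a median of 63.5. It reached at least 300 in 9 of them. Col9a3, a chain of type IX, and Col3a1, the chain of type III, are shown because the results below turn on the first as the gene that fell with IFNα and on the second as a chain that went with lung transcripts. Their longest runs were 113 and 344 triplets. The 90 bases shown are spliced coding sequence from 2 exons each on the plus strand, within chr2:180605239-180605780 and chr1:45323762-45325413 of GRCm38, and capitals mark the 10 glycine codons of each.

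Col9a3: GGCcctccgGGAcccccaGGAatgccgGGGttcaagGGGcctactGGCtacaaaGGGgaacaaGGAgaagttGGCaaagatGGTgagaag
Col3a1: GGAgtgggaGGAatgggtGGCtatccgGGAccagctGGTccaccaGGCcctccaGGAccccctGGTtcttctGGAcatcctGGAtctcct

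Most collagen chain transcripts were scarce in these libraries. Over all 36 genes the summed level was 16.3 to 30.0 FPKM (fragments scaled for transcript length and library size), of which Col1a1 took 13.8% to 31.9%. By median FPKM over the 12 libraries the order ran from Col1a1 (4.88) through Col16a1 (1.83), Col4a2 (1.81), Col9a2 (1.55), Col4a5 (1.42), Col4a1 (1.32) and Col9a3 (1.15) to Col5a1 (0.908), Col9a1 (0.883), Col11a2 (0.877), Col5a3 (0.839) and Col1a2 (0.744). The ranges of neighbours in this order overlapped, although Col1a1 was above Col16a1 in every library. The other 24 genes stayed under 1 FPKM in every library, and 8 of them under 0.1 FPKM. For scale, pigment cell genes such as Pmel and Mlana lay at 865 to 1222 and 723 to 1215 FPKM. By median FPKM Col1a1 lay above 69.2% of all genes tested. Col16a1, Col4a2, Col9a2, Col4a5 and Col4a1 lay above 50.3% to 55.3% of them, and each other chain above at most 48.3%.

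**Figure D1:**
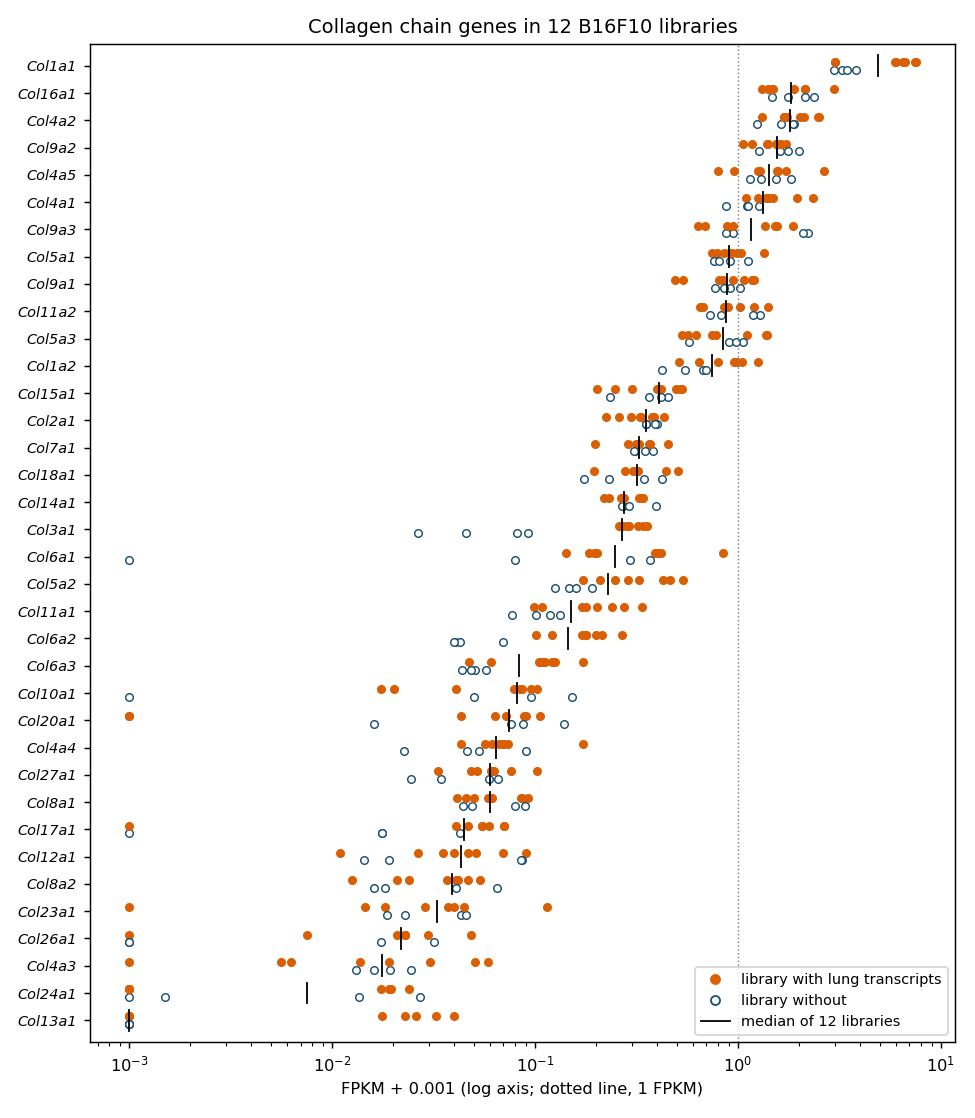
FPKM of the 36 collagen chain genes (rows, ordered by median) in each of the 12 libraries on a log axis, with 0.001 added so that a value of 0 sits at the left edge. Filled points are the 8 libraries with lung transcripts and open points the 4 without. Col1a1 stands highest at a median of 4.88 FPKM, and in the rows of Col3a1 and Col6a2 all filled points lie right of all open points.

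The labels name B16F10 cells and no lung tissue, yet lung transcripts were present in 8 of the 12 libraries. Sftpc, the surfactant protein of alveolar type II cells, and Scgb1a1, the secretory protein of airway club cells, summed to 23.1 to 40.2 CPM (counts scaled to library size by TMM) in mutant IFNα 3, the 3 mutant control libraries, the 3 wild-type IFNα libraries and wild-type control 1. In mutant IFNα 1 and 2 and wild-type control 2 and 3 the sum was 0 to 0.157 CPM. The summed lung epithelial markers lay at 43.8 to 66.6 CPM in the 8 libraries against 0.0424 to 0.229 in the 4, and 6 of 9 were at 0 in all 4. Endothelial markers followed the same split, at 3.82 to 10.9 against 1.3 to 1.98 CPM, with 4 of 5 higher in each of the 8 than in each of the 4. Fibroblast markers summed to 60.6 to 95.8 against 63.5 to 79.0 CPM, of which Fbln1 gave 53.6 to 90.0 against 61.1 to 76.6. In 4 of the 8 fibroblast markers each of the 8 libraries lay above each of the 4, and Dcn and Dpt were at 0 in all 4. Smooth muscle and pericyte markers summed to 7.66 to 10.2 against 6.11 to 8.48, leukocyte markers to 57.7 to 105.9 against 47.9 to 64.7 and melanocyte markers to 6964 to 9413 against 7235 to 8482 CPM. Cartilage markers (Sox9, Acan, Comp and Matn1) stayed at 1.72 to 3.63 against 2.42 to 3.90 CPM.

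This split divides the chains into those present without lung transcripts and those that followed them. A chain was counted as made without them where each of the 4 libraries that lack them held at least 1 FPKM, which 5 did: Col1a1, Col9a2, Col4a5, Col4a2 and Col16a1. With the minimum at 0.5 FPKM 11 chains did, and with it at 2 FPKM only Col1a1. A chain was said to follow them where each of the 8 libraries lay above each of the 4 in CPM, which held for 2, Col3a1 and Col6a2, where 1.3% of all 17590 genes tested did so. No chain met both rules and 29 met neither, while 30 of the 36 had a count above 0 in all 4 libraries without lung transcripts. The split is a description of the libraries and was given no test.

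Col3a1 (ENSMUSG00000026043, chr1:45350698-45388866 in the deposited coordinates, whose gene starts mostly differ from those of the annotation behind the sequences shown), the chain of type III collagen in skin, vessels and lung, had 1 level with lung transcripts and another without. It stood at 0.0918, 0.0804 and 0.357 FPKM in mutant IFNα, 0.340, 0.321 and 0.285 in mutant control, 0.258, 0.266 and 0.289 in wild-type IFNα, and 0.270, 0.0256 and 0.0450 in wild-type control. The 2 low values in mutant IFNα and the 2 in wild-type control belong to the libraries without lung transcripts, so that mutant IFNα 3 and wild-type control 1 stood apart from their own groups. In CPM the 8 libraries held 2.38 to 3.83 and the 4 held 0.288 to 0.976, a ratio of medians of 4.81. Counts in the 4 were 69, 61, 21 and 35, so the gene was present without lung transcripts at a low level, and there it was higher in both mutant IFNα libraries than in both wild-type control libraries.

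Col6a2 (ENSMUSG00000020241, chr10:76431596-76459464 as deposited), a chain of the type VI beaded filaments that surround many cells, split in the same way. Its values were 0.0392, 0.0419 and 0.267 FPKM in mutant IFNα, 0.214, 0.169 and 0.179 in mutant control, 0.198, 0.178 and 0.120 in wild-type IFNα, and 0.101, 0.0388 and 0.0687 in wild-type control. In CPM this was 0.899 to 2.42 with lung transcripts against 0.343 to 0.555 without, a ratio of medians of 4.21. Its trimer partners did not split so. Col6a1 was at 0.0787, 0 and 0.391 FPKM in mutant IFNα, 0.141, 0.184 and 0.202 in mutant control, 0.847, 0.415 and 0.194 in wild-type IFNα, and 0.404, 0.293 and 0.368 in wild-type control. The 0 in mutant IFNα 2 was a count of 0, beside 27 and 113 in the other libraries of that group. Col6a3 was at 0.0498, 0.0566 and 0.111 FPKM in mutant IFNα, 0.104, 0.124 and 0.0465 in mutant control, 0.171, 0.107 and 0.120 in wild-type IFNα, and 0.0599, 0.0427 and 0.0473 in wild-type control. Its ratio of medians was 2.35, with mutant control 3 and wild-type control 1 among the low libraries although both hold lung transcripts.

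Of the chains of type I collagen, the main fibrillar collagen of skin and bone, Col1a1 met the rule for chains made without lung transcripts. Col1a2 did not, at 0.420 to 0.696 FPKM in the libraries that lack them. Both were higher in most libraries that hold them. Col1a1 (ENSMUSG00000001506, chr11:94827050-94843868 as deposited) was at 2.97, 3.24 and 7.46 FPKM in mutant IFNα, 6.65, 7.52 and 2.99 in mutant control, 6.0, 5.95 and 6.54 in wild-type IFNα, and 3.00, 3.45 and 3.82 in wild-type control. Its values thus fell into a high set of 6 libraries, all of which hold lung transcripts, and a low set of 6, which are the 4 without them together with mutant control 3 and wild-type control 1. Sftpc and Scgb1a1 summed to 27.7 CPM in mutant control 3 and to 23.1 CPM in wild-type control 1, the lowest of the 8, so Col1a1 did not follow the split. Col1a2, its partner, was at 0.420, 0.550 and 1.05 FPKM in mutant IFNα, 0.984, 0.793 and 0.514 in mutant control, 1.26, 0.956 and 0.976 in wild-type IFNα, and 0.646, 0.673 and 0.696 in wild-type control. The ratio of Col1a1 to Col1a2 in FPKM was 4.65 to 9.49. The ratio of Col3a1 to Col1a1 in FPKM was 0.0427 to 0.0951 in the 8 libraries with lung transcripts and 0.00743 to 0.0309 in the 4 without.

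**Figure D2:**
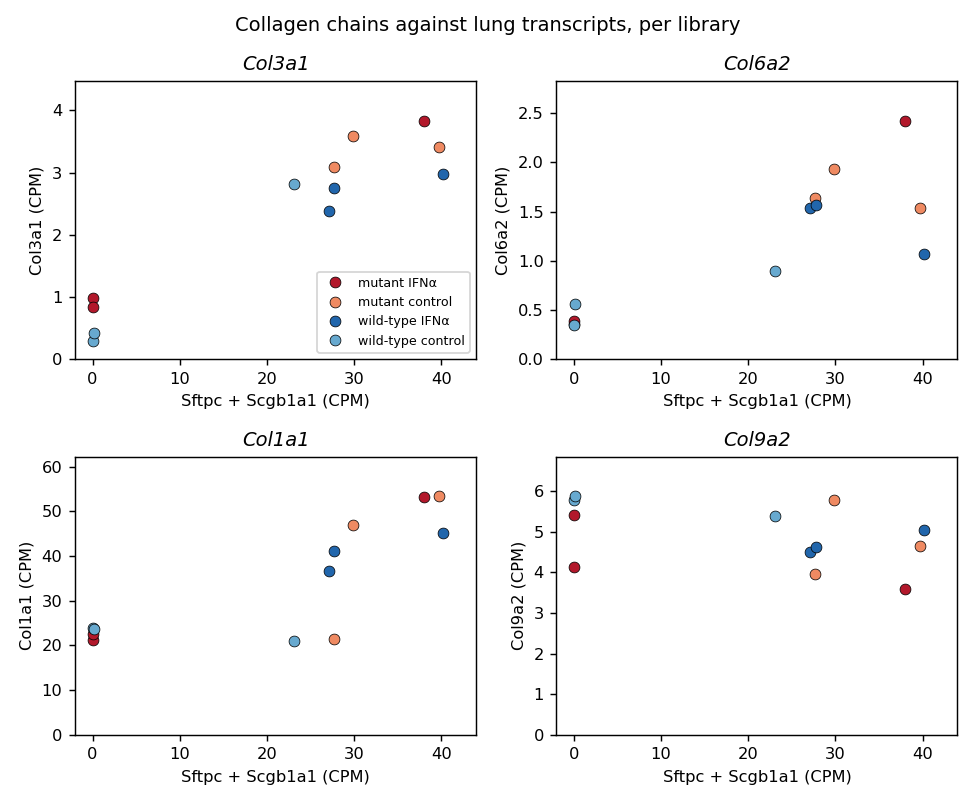
Level of 4 collagen chains (vertical axes, CPM) against the sum of Sftpc and Scgb1a1 (horizontal axes, CPM), 1 point per library, coloured by group. Col3a1 and Col6a2 are low at the left edge and higher in all 8 libraries with lung transcripts, Col1a1 is low in mutant control 3 and wild-type control 1 as well, and Col9a2 overlaps between both sets at 3.58 to 5.77 against 4.13 to 5.86 CPM.

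The rest of the family showed smaller gaps. The median was higher with lung transcripts in 25 of the 36 genes, and no gene was lower in each of the 8 libraries than in each of the 4. The transmembrane chain Col13a1, named after its values were seen, was counted in 5 libraries, all with lung transcripts, at 7 to 12 counts, and at 0 in 7. The 4 libraries without lung transcripts were among those at 0, and at counts this low no difference is read. It was the 1 member that did not pass the filter on low counts, so the comparisons below were fitted on 35 members. In bulk RNA more cells of a type and more RNA per cell cannot be told apart, and whether lung transcripts and these collagen transcripts share a source was not tested.

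The first comparison asked how IFNα changed the chains within each line. Fold changes are log2 values from edgeR's quasi-likelihood test over 17590 genes, with Benjamini-Hochberg adjustment and a threshold of 0.05. Their standard errors were worked back from the fold change and the F value of that test. The 95% intervals were built from these errors with a t quantile. In the wild type 1 of 35 members passed, Col9a3, which fell by 1.32 ± 0.182 on the log2 scale (adjusted p = 0.0202, n = 3 libraries per group), where 0.0227% of all genes passed. At an unadjusted p under 0.05 there were 8 members, 5 higher and 3 lower, beside 5.44% of all genes. DESeq2 called 1 member, beside 0.387% of all genes, and limma on FPKM called 1 of 11, beside 0.0297%, in both cases Col9a3. In the mutant 0 of 35 passed, beside 0.00569% of all genes, and 2 had an unadjusted p under 0.05, beside 10.3%. DESeq2 called 1 there, Col9a3, beside 0.952% of all genes, and limma called 0 of 11, beside 0.0297%.

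Lung transcripts were present in 3 of 3 wild-type IFNα against 1 of 3 wild-type control libraries, and in 1 of 3 mutant IFNα against 3 of 3 mutant control libraries, so within each line they went with the treatment, in opposite directions. The median log2 fold change of the members was 0.12 for the wild type, beside 0.02 over all genes tested, and −0.19 for the mutant, beside −0.01. Fibrillar chains were higher in 9 of 11 in the wild type, at a median of 0.50, and in 2 of 11 in the mutant, at a median of −0.32, and none of them passed. Beaded filament chains were higher in 3 of 3 for the wild type, against 0 of 3 for the mutant. Col3a1 stood at 1.20 ± 0.694 for the wild type (adjusted p = 0.979), beside −0.86 ± 0.685 for the mutant (adjusted p = 0.70). Within the libraries with lung transcripts the log2 ratio of its mean CPM was −0.06 in the wild type (3 IFNα against 1 control) and 0.19 in the mutant (1 against 3). Col1a1 stood at 0.84 ± 0.335 for the wild type (adjusted p = 0.82), beside −0.34 ± 0.333 for the mutant (adjusted p = 0.759), and within the libraries with lung transcripts at 0.96 and 0.39.

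An average of the IFNα effect over both lines was added after the data were seen, since it sets 6 libraries against 6 with 4 libraries holding lung transcripts on either side. It called 1 member, Col9a3, where 0.171% of all genes passed, and 4 members had an unadjusted p under 0.05, beside 10.2%. DESeq2 called 2, Col9a3 and Col12a1, beside 2.11% of all genes, and limma 1 of 11, Col9a3, beside 0.258%. For 19 of the 35 members the 95% interval lay inside a 2-fold change in either direction, and for the other 16 the interval also held changes of 2-fold or more.

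Col9a3 (ENSMUSG00000027570, chr2:180239583-180263982 as deposited) encodes a chain of type IX collagen, which coats the type II fibrils of cartilage and is also found in the vitreous and the inner ear. It was lower in each IFNα library than in each control library. The values were 0.941, 0.876 and 0.635 FPKM in mutant IFNα against 1.36, 1.51 and 1.56 FPKM in mutant control. In the wild type they were 0.946, 0.880 and 0.684 FPKM with IFNα against 1.87, 2.22 and 2.10 FPKM in control. The gene fell by 1.10 ± 0.128 on the log2 scale over both lines (95% interval −1.37 to −0.82, edgeR adjusted p = 0.0027, 6 libraries on either side). In the mutant alone it stood at −0.88 ± 0.181 (adjusted p = 0.189). Its means were 0.817 ± 0.161 FPKM in mutant IFNα against 1.48 ± 0.103 FPKM in mutant control, and 0.837 ± 0.136 FPKM in wild-type IFNα against 2.06 ± 0.174 FPKM in wild-type control (SD, n = 3 each). Within the 8 libraries with lung transcripts the log2 ratio of mean CPM was −1.08, 4 IFNα against 4 control.

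The call in the wild type alone was lost without any single wild-type library (adjusted p = 0.0705 to 0.229) and with a term for lung transcripts (0.183), while its log2 fold change stayed between −1.40 and −0.74 over all 23 alternatives. The call over both lines passed in all 23, at −1.16 to −0.59 and adjusted p-values of at most 0.0246. The difference between the lines, the interaction, was 0.44 ± 0.254 for Col9a3 (95% interval −0.11 to 0.98, adjusted p = 0.916).

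The other chains of the type IX trimer did not pass the test. Col9a2 was at 1.62, 1.27 and 1.06 FPKM in mutant IFNα, 1.73, 1.39 and 1.17 in mutant control, 1.56, 1.41 and 1.55 in wild-type IFNα, and 1.63, 1.76 and 2.00 in wild-type control. Col9a1 was at 0.770, 0.910 and 0.490 FPKM in mutant IFNα, 0.808, 0.946 and 0.536 in mutant control, 1.17, 1.07 and 0.844 in wild-type IFNα, and 1.20, 1.02 and 0.856 in wild-type control. Over both lines IFNα and control libraries overlapped in both genes. In the wild type alone each Col9a2 value with IFNα lay below each in control, at −0.26 ± 0.189 (95% interval −0.67 to 0.14). Over both lines Col9a2 stood at −0.20 ± 0.134 (95% interval −0.49 to 0.08) and Col9a1 at −0.07 ± 0.181 (−0.45 to 0.32), with adjusted p-values of 0.662 and 0.95. The ratio of Col9a3 to Col9a2 in FPKM was 0.625 ± 0.0589 in mutant IFNα against 1.07 ± 0.275 in mutant control, and 0.557 ± 0.10 in wild-type IFNα against 1.15 ± 0.103 in wild-type control (SD, n = 3 each). Its highest value in the 6 IFNα libraries was 0.692 and its lowest in the 6 control libraries was 0.787. All 3 chains share a longest run of 113 glycine triplets. Sox9, the cartilage transcription factor, lay at 0.260 to 0.882 FPKM over the 12 libraries, and Acan, Comp and Matn1 stayed under 0.1 FPKM.

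**Figure D3:**
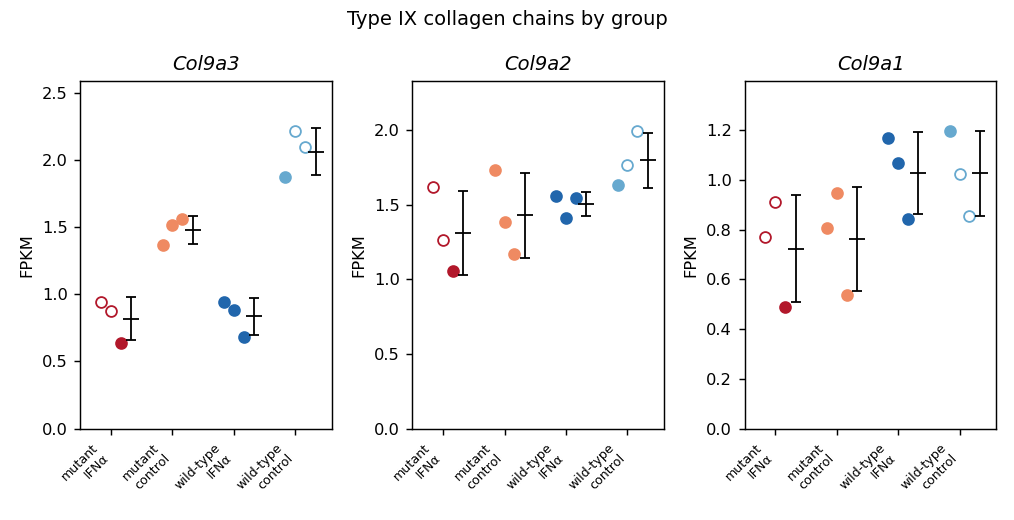
FPKM of Col9a3, Col9a2 and Col9a1 in the 4 groups. Each point is a library (filled with lung transcripts, open without), and the bar beside it is the mean ± SD of 3 libraries. Col9a3 lies at 0.635 to 0.946 FPKM in the 6 IFNα libraries, below the 1.36 to 2.22 FPKM of the 6 control libraries, while Col9a2 and Col9a1 overlap between those 6 and 6.

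Col12a1, a fibril-associated chain named after its values were seen, was at 0.0134, 0.0181 and 0.0501 FPKM in mutant IFNα against 0.0344, 0.0457 and 0.0896 in mutant control, and at 0.0388, 0.00999 and 0.0254 in wild-type IFNα against 0.0683, 0.0852 and 0.0846 in wild-type control. Its change over both lines was −1.40 ± 0.396 (edgeR adjusted p = 0.217), and it was called with DESeq2. Its counts, 12 to 101, are low for a fold change. Col5a1, a chain of type V collagen, which lies inside type I fibrils, was at 1.13, 0.911 and 1.03 FPKM in mutant IFNα against 0.785, 0.905 and 0.856 in mutant control, and at 1.35, 0.989 and 0.930 in wild-type IFNα against 0.744, 0.764 and 0.809 in wild-type control. It stood at 0.36 ± 0.105 over both lines (95% interval 0.13 to 0.58, adjusted p = 0.232), and the IFNα libraries lay above the control libraries in FPKM, while in CPM they overlapped, with 8.23 in mutant IFNα 2 against 8.37 in mutant control 2.

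The second comparison set the mutant line against the wild type. Without IFNα 0 of 35 members passed, where 0.165% of all genes did, and 8 had an unadjusted p under 0.05, 6 higher and 2 lower, beside 10.7%. DESeq2 called 3, Col5a2, Col11a2 and Col16a1, beside 1.26% of all genes, and limma 0 of 11, beside 0.347%. With IFNα 0 of 35 passed, where 0.597% of all genes did, and 6 had an unadjusted p under 0.05, all lower, beside 13.7%. DESeq2 called 2, Col5a3 and Col27a1, beside 4.02% of all genes, and limma 0 of 11, beside 0.555%. Lung transcripts were in 3 of 3 mutant control against 1 of 3 wild-type control libraries and in 1 of 3 mutant IFNα against 3 of 3 wild-type IFNα libraries. These comparisons and those of IFNα share their libraries, so the tests of a gene are not independent of each other.

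The average over both treatments, also added after the data were seen, again has 4 libraries with lung transcripts on either side. It called 3 of 35 members, all lower in the mutant, where 2.8% of all genes passed, and 7 members had an unadjusted p under 0.05, beside 18.1%. DESeq2 called 5, these 3 with Col4a5 and Col5a2, beside 7.29% of all genes, and limma 3 of 11, beside 3.93%. The members' median was −0.07, against −0.001 over all genes. Of 35 members, 21 had a 95% interval inside a 2-fold change in either direction.

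Col16a1 (ENSMUSG00000040690, chr4:129941633-129993076 as deposited), a fibril-associated chain, was the second most abundant. It was at 1.77, 1.47 and 1.48 FPKM in mutant IFNα against 2.98, 1.88 and 2.15 FPKM in wild-type IFNα, and at 1.41, 1.48 and 1.32 FPKM in mutant control against 2.13, 2.37 and 2.15 FPKM in wild-type control. Each of the 6 mutant libraries lay below each of the 6 wild-type libraries. It fell by 0.51 ± 0.107 on the log2 scale (95% interval −0.74 to −0.28, adjusted p = 0.0232), and within the libraries with lung transcripts the log2 ratio of mean CPM was −0.59.

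Col11a2 (ENSMUSG00000024330, chr17:34258411-34285659 as deposited), a chain of type XI collagen, which is known to limit fibril diameter in cartilage, was at 0.725, 0.825 and 0.647 FPKM in mutant IFNα against 1.40, 1.02 and 0.897 FPKM in wild-type IFNα, and at 0.857, 0.672 and 0.666 FPKM in mutant control against 1.20, 1.29 and 1.18 FPKM in wild-type control. Here too all mutant libraries lay below all wild-type libraries. The gene fell by 0.56 ± 0.120 (95% interval −0.82 to −0.30, adjusted p = 0.0254), with −0.57 within the libraries with lung transcripts.

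Col5a3 (ENSMUSG00000004098, chr9:20681346-20726363 as deposited), the third chain of type V, was at 0.903, 0.573 and 0.529 FPKM in mutant IFNα against 1.37, 1.10 and 1.38 FPKM in wild-type IFNα, and at 0.565, 0.776 and 0.617 FPKM in mutant control against 0.745, 1.06 and 0.981 FPKM in wild-type control. The lines overlapped through mutant IFNα 1, mutant control 2 and wild-type control 1. The gene fell by 0.63 ± 0.155 (95% interval −0.96 to −0.29, adjusted p = 0.0463), with −0.80 within the libraries with lung transcripts.

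These 3 calls were near the threshold. Over 23 alternatives Col16a1 passed in 17, Col11a2 in 16 and Col5a3 in 8, at log2 fold changes of −0.60 to −0.39, −0.65 to −0.32 and −0.77 to −0.34. The number of members called fell to 0 without mutant control 3, wild-type IFNα 1 or wild-type control 2, and to 1 without mutant IFNα 2, mutant control 1 or mutant control 2. Long transcripts were lower in the mutant over all genes, with a Spearman correlation of −0.273 between the log2 fold change and transcript length across 17193 genes, which are not independent replicates, and collagen transcripts are long (median 5658 against 2857 bases). With that trend removed 1 member was called, Col16a1 at −0.44 (adjusted p = 0.044), while Col11a2 stood at −0.49 (adjusted p = 0.0531) and Col5a3 at −0.55 (adjusted p = 0.102).

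**Figure D4:**
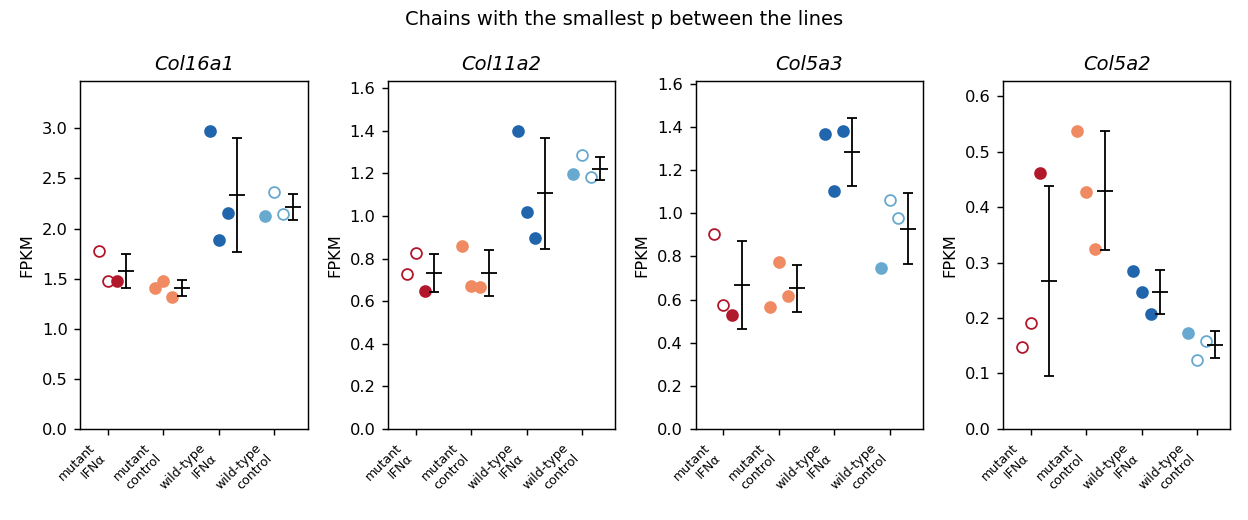
FPKM of Col16a1, Col11a2, Col5a3 and Col5a2 in the 4 groups. Points are libraries (filled with lung transcripts, open without) and bars the mean ± SD of 3. In Col16a1 and Col11a2 all 6 mutant libraries lie below all 6 wild-type libraries, in Col5a3 the lines overlap, and in Col5a2 the 3 mutant control libraries lie above the 3 wild-type control libraries.

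The stretches before the starts of these 3 genes are shown because the genes were lower together in the mutant. Each is the 250 bases before the start in the RefSeq promoter table on GRCm38.p6, read in the direction of the gene: chr17:34038888-34039137 on the plus strand for Col11a2, chr4:130047590-130047839 on the plus strand for Col16a1 and chr9:20815068-20815317 on the minus strand for Col5a3. Capitals mark matches on either strand to the CCAAT box, to the GC box core GGGCGG and to the letters TATAAA. On the other strand the GC box core reads CCGCCC.

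Col11a2: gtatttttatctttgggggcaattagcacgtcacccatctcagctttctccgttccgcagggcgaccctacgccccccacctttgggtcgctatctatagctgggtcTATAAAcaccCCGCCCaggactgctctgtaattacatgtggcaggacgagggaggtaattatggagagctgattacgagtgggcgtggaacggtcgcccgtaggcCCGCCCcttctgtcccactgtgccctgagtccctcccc
Col16a1: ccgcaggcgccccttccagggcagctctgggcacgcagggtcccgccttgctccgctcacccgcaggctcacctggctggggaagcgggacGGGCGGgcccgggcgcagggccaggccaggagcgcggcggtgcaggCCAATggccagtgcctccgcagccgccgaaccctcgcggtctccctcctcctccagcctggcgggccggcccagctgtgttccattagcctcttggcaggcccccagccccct
Col5a3: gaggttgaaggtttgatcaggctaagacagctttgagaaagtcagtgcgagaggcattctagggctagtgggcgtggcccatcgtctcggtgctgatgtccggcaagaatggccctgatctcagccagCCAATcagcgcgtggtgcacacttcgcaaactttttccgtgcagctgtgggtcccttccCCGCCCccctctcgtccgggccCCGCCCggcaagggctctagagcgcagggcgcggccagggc

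All 3 hold the GC box core, and Col16a1 and Col5a3 hold the CCAAT box. Col11a2 holds the letters TATAAA, 143 to 138 bases before the start. The RefSeq table has windows for 28 of the 36 chain genes, 31 in all, each from 250 bases before to 50 after a start. Only the 250 bases before the start were searched in each window, on both strands. There GGGCGG was in 54.8% of these windows against 32.7% of all 32851 windows in the table. CCAAT was in 35.5% against 33.8%, and TATAAA in 16.1% against 12.4%. The letters GAAANNGAA, a short form of the element bound by interferon response factors, were in 3.23% against 7.13%, the 1 chain gene being Col27a1. TTCNNNGAA, the element of STAT dimers, was in 0% against 7.02%. The motifs do not overlap each other in the stretches shown, and a match is a description of letters, not of binding.

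Col5a2, the second chain of type V, differed between the lines in the other direction. It was at 0.147, 0.191 and 0.462 FPKM in mutant IFNα against 0.286, 0.247 and 0.207 FPKM in wild-type IFNα, and at 0.538, 0.427 and 0.324 FPKM in mutant control against 0.172, 0.125 and 0.159 FPKM in wild-type control. Only the control groups were separate. Its difference was 1.60 ± 0.360 without IFNα (adjusted p = 0.121) and 0.90 ± 0.251 over both treatments (adjusted p = 0.0714). In mutant IFNα the library with lung transcripts was the high one, and within the libraries with lung transcripts the log2 ratio over both treatments was 1.03. With a term for lung transcripts it was called at 0.82 (adjusted p = 0.0309).

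Col11a1, the partner of Col11a2 in type XI, was at 0.117, 0.132 and 0.272 FPKM in mutant IFNα against 0.169, 0.239 and 0.177 FPKM in wild-type IFNα, and at 0.336, 0.201 and 0.107 FPKM in mutant control against 0.0978, 0.10 and 0.0759 FPKM in wild-type control. It stood at 0.61 ± 0.281 over both treatments (adjusted p = 0.265). Col27a1, a fibrillar chain of cartilage, was at 0.0336, 0.0235 and 0.0323 FPKM in mutant IFNα against 0.101, 0.0608 and 0.0750 FPKM in wild-type IFNα, with no overlap, and at 0.0510, 0.0600 and 0.0475 FPKM in mutant control against 0.0619, 0.0646 and 0.0583 FPKM in wild-type control. Its difference was −1.25 ± 0.343 with IFNα (adjusted p = 0.12), from counts of 24 to 104.

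None of the 5 basement membrane chains passed with edgeR in any comparison, and DESeq2 called Col4a5 in the average between the lines. Col4a1 and Col4a2, which form the trimer of most basement membranes and lie head to head, were close in every library. Col4a1 was at 1.27, 0.874 and 1.96 FPKM in mutant IFNα, 1.25, 1.09 and 1.37 in mutant control, 2.34, 1.43 and 1.48 in wild-type IFNα, and 1.41, 1.11 and 1.13 in wild-type control. Col4a2 was at 1.63, 1.24 and 2.51 FPKM in mutant IFNα, 1.32, 1.68 and 2.02 in mutant control, 2.49, 1.75 and 1.68 in wild-type IFNα, and 2.11, 1.89 and 1.87 in wild-type control. The ratio of Col4a1 to Col4a2 in FPKM was 0.584 to 0.952. Their starts lie 21 bases apart in the RefSeq table, and the labels do not say whether counting used the strand, so reads at the shared start cannot be assigned.

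Col4a5, the X-linked chain of the specialised basement membrane of kidney and lung, was at 1.54, 1.15 and 0.798 FPKM in mutant IFNα against 2.67, 1.55 and 1.72 FPKM in wild-type IFNα, and at 0.960, 1.29 and 1.26 FPKM in mutant control against 1.57, 1.29 and 1.83 FPKM in wild-type control. Its difference over both treatments was −0.49 ± 0.161 (95% interval −0.83 to −0.14, adjusted p = 0.126). Col4a3 and Col4a4, its partners in that basement membrane, were much lower. Col4a6, another type IV chain, is not among the 41 symbols and has no values here. Col4a3 was at 0.0184, 0.0235 and 0.0581 FPKM in mutant IFNα, 0.00462, 0 and 0.0295 in mutant control, 0.0181, 0.0128 and 0.00532 in wild-type IFNα, and 0.0495, 0.0121 and 0.0151 in wild-type control. Col4a4 was at 0.0455, 0.0519 and 0.0692 FPKM in mutant IFNα, 0.0690, 0.0557 and 0.0726 in mutant control, 0.171, 0.0605 and 0.0655 in wild-type IFNα, and 0.0424, 0.0895 and 0.0217 in wild-type control. Groups overlapped in both genes, except that each Col4a3 value in mutant IFNα lay above each in wild-type IFNα, from counts of 15 to 38 against 4 to 15. That difference was 1.56 ± 1.13 (adjusted p = 0.588).

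**Figure D5:**
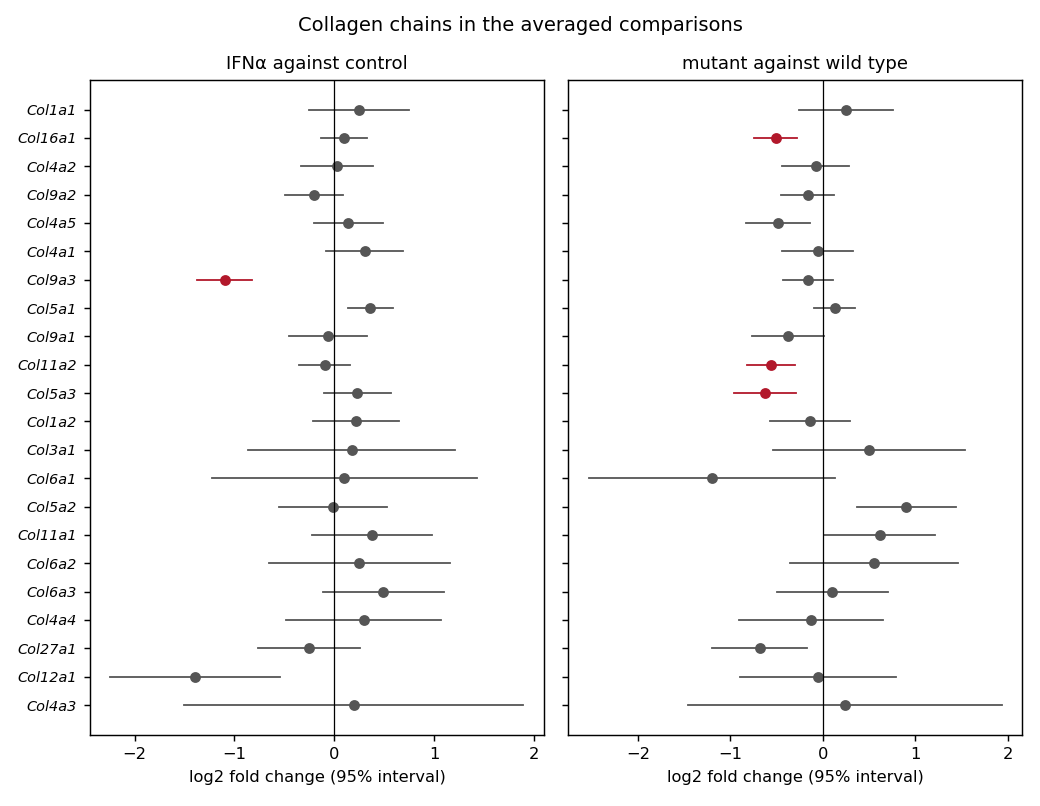
Log2 fold change (points) and 95% interval (lines) from edgeR for the chains given by library, ordered by median FPKM, for IFNα against control averaged over both lines (left) and mutant against wild type averaged over both treatments (right). Red marks an adjusted p under 0.05, which Col9a3 passed on the left and Col16a1, Col11a2 and Col5a3 on the right.

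The last comparison asked whether the effect of IFNα differed between the lines. The interaction called 0 of 35 members, where 0.0% of all genes passed, and the smallest adjusted p of a member was 0.916. At an unadjusted p under 0.05 there were 6 members, all negative, beside 5.17% of all genes. DESeq2 called 0 members, beside 0.0604% of all genes, and limma 0 of 11, beside 0.0%. The 6 were Col6a3, Col5a2, Col1a1, Col11a1, Col27a1 and Col6a2, at −1.13 to −1.93. Lung transcripts are in 1 of 3 mutant IFNα, 3 of 3 mutant control, 3 of 3 wild-type IFNα and 1 of 3 wild-type control libraries, so they run along the interaction in all libraries but mutant IFNα 3 and wild-type control 1. With a term for lung transcripts the interaction stood at −0.76 for Col6a3, −0.24 for Col5a2, −0.41 for Col1a1, −0.50 for Col11a1, −0.92 for Col27a1 and 0.07 for Col6a2 (adjusted p-values of 0.799 to 0.996). Of the 6, Col6a2 was the 1 whose sign changed.

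The genes that build, bind and cut collagen were set beside the chains. Of 31 genes of biosynthesis and processing 29 were tested, and Serpinh1 (the collagen chaperone), Ppib, P4hb and Fkbp10 are among them. Their levels ran from a median of 0.00618 FPKM for P4ha3, a prolyl hydroxylase subunit, to 261 to 431 FPKM over the libraries for Serpinh1, and 14 had a median above that of Col1a1. In the average over treatments 2 of 29 passed, where 2.8% of all genes did. Fkbp10, which assists collagen folding, rose by 0.49 ± 0.0919 (adjusted p = 0.0122), at 9.33 ± 0.640 FPKM in mutant IFNα against 6.89 ± 0.744 in wild-type IFNα and 8.47 ± 0.973 in mutant control against 6.69 ± 1.35 in wild-type control (SD, n = 3 each). Plod2, a lysyl hydroxylase that prepares collagen cross-links, fell by 0.72 ± 0.165 (adjusted p = 0.034), at 1.93 ± 0.638 FPKM in mutant IFNα against 3.32 ± 1.04 in wild-type IFNα and 1.73 ± 0.257 in mutant control against 3.17 ± 0.533 in wild-type control. DESeq2 called 4 of this list there, beside 7.29% of all genes, and limma 1, beside 3.93%, and 8 of 29 had an unadjusted p under 0.05, beside 18.1%. In the other 6 comparisons none of the 29 passed with edgeR. At an unadjusted p under 0.05 there were 7 of 29 (24.1%) for IFNα in the mutant, beside 10.3% of all genes, and 2 in the wild type, beside 5.44%. The average of IFNα had 7, beside 10.2%. Between the lines there were 7 with IFNα, beside 13.7%, and 6 without, beside 10.7%, and the interaction had 1, beside 5.17%. DESeq2 called 1 each between the lines with IFNα (4.02% of all genes), in the interaction (0.0604%) and in the average of IFNα (2.11%), and limma none in these 6. None of 8 receptors and none of 6 collagen-cleaving proteases tested passed by edgeR, limma or DESeq2 in the 7 comparisons. No more than 1 of each list had an unadjusted edgeR p under 0.05 in a comparison. That is 12.5% of the receptors and 16.7% of the proteases, beside 5.17% to 18.1% of all genes over the 7 comparisons. Ddr1, a collagen receptor kinase, lay at 25.0 to 35.9 FPKM and Mmp14, a membrane collagenase, at 4.98 to 11.5 FPKM. None of the genes in these lists lay higher in each library with lung transcripts than in each library without.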

How the data were processed

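The 12 libraries were grouped by their labels. Per the submitters' processing notes, the tools were HISAT2 2.0.4, StringTie 1.3.4d, cutadapt 1.9, UMI-tools, edgeR and DESeq2, and the build GRCm38. How fragments were counted, and whether by strand, is not given in the sources used here. Only 2 of 36 chain genes have the start of the GRCm38 annotation, so coordinates are given as deposited. The authors deposited whole counts, not scaled for depth, in which 33.6% of values from 1 to 30 were multiples of 4 against 23.3% of whole numbers, so a count is not 1 fragment and counting error is larger than counts imply. The authors deposited FPKM beside them, which by its name is scaled for gene length and for depth.

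The counts were tested with edgeR 4.0.16 (R 4.3.3, TMM, its default filter on low counts leaving 17590 genes, quasi-likelihood test, 4 group means, two-sided, common biological coefficient of variation 28.9%). This covered 5 comparisons, with 2 averages added after the data were seen. DESeq2 1.42.0 and limma 3.58.1 on log2(FPKM + 1) with at least 1 FPKM in at least 3 libraries were alternatives, beside other scalings, filters, a term for lung transcripts, a replicate block and leaving out each library. Libraries hold lung transcripts where Sftpc and Scgb1a1 sum to at least 5 CPM. The code was tested on simulated data. Members and lists were chosen with earlier results of these data known. Values per library are given for chains called, for the 12 highest without lung transcripts, for the 10 with the largest ratio of median CPM with against without lung transcripts (at 0.5 CPM or more), and for their trimer partners.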

Additional observations from a re-analysis of the deposited data

How the results depend on the processing

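The number of chains called depended on the tool and the libraries. For IFNα in the wild type 1 was called, but 0 by limma with a pseudocount of 0.1 or with no filter on low FPKM, 0 with a replicate block, 0 with a term for lung transcripts and 0 to 1 when each library was left out in turn. Wild-type control 1 and mutant IFNα 3 were also omitted together, a setting chosen after the data were seen. Lung transcripts and group then cannot be told apart. Col3a1, which follows lung transcripts, was among the chains called in each comparison but the average of IFNα. In the 5 comparisons its calls cannot be told apart from the split by which it was picked. Counts of chains called are left out here, since the share of all genes called in this setting was not worked out. DESeq2 called 1 for IFNα in the mutant (0 with edgeR), 3 and 2 between the lines without and with IFNα (0 each), 2 for the average of IFNα and 5 for the average between the lines. Leaving out each library gave 0 to 1 for either treatment between the lines, where 0 were called, and 0 to 3 for their average, where 3 were called. That average had 0 in limma with no filter on low FPKM and 1 with the length trend removed, and Col9a3 alone was called in the average of IFNα under each alternative but DESeq2. Chains made without lung transcripts numbered 5, but 11 at 0.5 FPKM, 1 at 2 FPKM and 8 by the median of those libraries. Col3a1 and Col6a2 followed lung transcripts in CPM, FPKM and unscaled CPM. Of 792 values of single genes, 736 kept their direction and side of the threshold, 38 lost a call, 17 gained one, and 1 changed sign, the interaction of Col6a2 at 0.0709 with a term for lung transcripts. Under the replicate block the average between the lines had 2 calls, and other counts did not move by over 1.5 times. The labels do not say whether equal numbers pair the libraries. Of 18 same-numbered pairs the correlations of deviations were −0.297 to 0.107, 2 of them over 0.1, and 2 of 12 libraries correlated best with their own number. No strong pairing was seen, but such correlations cannot exclude a weak one. With 3 libraries a group and a biological coefficient of variation of 28.9%, small changes can be missed, and chains with counts under 30 rest on few fragments.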
